A study of Mus musculus with 3 samples.

Results

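The comparison described here set lineage-negative Sca-1+ c-Kit+ (LSK) bone marrow cells of *Calr* del10/WT mice against those of *Calr* ins2/WT mice, the pair of calreticulin frameshift knock-in genotypes in the series. Its members were the genes whose normalized counts in the ins2 and del10 libraries averaged 400 or more. They numbered 5191, out of 13855 genes with reads in either library and 36172 genes listed. The normalized count of a gene is its read count times the TMM library factor of the authors, which brings libraries of unequal depth and composition to one scale. It is not divided by gene length, so that it compares a gene between the libraries and not one gene with another. At the edge of the set, *Snhg8* was just inside with a mean of 400.2 and *Tmem168* just outside with 399.9.

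Each genotype had 1 library, made from an aliquot of LSK cells of 4 male mice that were 3 months old. Both knock-ins were heterozygous, on a C57BL/6J background, with 1 mutant and 1 wild-type *Calr* allele, and had been made by CRISPR-Cas9 electroporation of zygotes. The del10 allele lacks bases and the ins2 allele gains bases in *Calr* exon 9, and both shift the reading frame so that the protein loses its KDEL signal for retention in the endoplasmic reticulum (ER). Every cell of these animals carries the allele, since no tissue-specific promoter was involved, and the founders of each genotype were crossed with wild-type mice. A wild-type library completes the series and enters no ratio here. Pooling of mice within a library leaves the spread between animals unmeasured. No test, p-value or standard deviation can therefore be given, and each ratio below compares these libraries and not the genotypes.

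Calreticulin is a calcium-binding chaperone of the ER that helps newly made glycoproteins to fold. In human myeloproliferative neoplasms, frameshifted calreticulin leads to activation of JAK2 and the STAT proteins without a cytokine. LSK cells comprise the stem cells of the blood and the progenitors that have not yet chosen a lineage, and are defined by the lack of mature lineage antigens and by the surface proteins that *Ly6a* (Sca-1) and *Kit* encode.

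The libraries held 10967622 reads assigned to genes in ins2 and 11111698 in del10, and the precursor of ribosomal RNA, *Rn45s*, took 15.5% and 16.7%. They were made from 5 ng of total RNA each, and the commonest low read count of a gene was 21 in ins2 and 16 in del10. Reads were therefore also expressed as estimated fragments, 1 fragment being that many reads, and an exact binomial (Clopper-Pearson) 95% interval of each ratio was computed on these fragments. It covers counting error only and not the spread between mice. With equal levels in both libraries it ran from 0.549 to 1.99 for a gene at a normalized count of 400, from 0.675 to 1.49 at 1000 and from 0.822 to 1.21 at 4000. Small differences in genes near the lower edge of the set were thus not detectable at this depth.

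Among the LSK markers, *Kit* was at 3082 in ins2 and 4177 in del10, *Flt3* at 1682 and 1533, *Meis1* at 831 and 1527, and *Hlf* at 505 and 531. *Ly6a* stood at only 120.1 in ins2 and 51.9 in del10, and so did not enter the set. Transcripts of mature cells were present in both libraries, among them *Prss34* of basophils (11103 and 15962) and *Ncr1* of natural killer (NK) cells (3001 and 770.1). Of the genes that mark sex, the Y-linked *Ddx3y* was at 1160.5 and 1485, *Kdm5d* at 1339.9 and 790.3, *Uty* at 779 and 574, and *Eif2s3y* at 1088 and 514. *Xist* had a normalized count of 52.2 in ins2, about 2.52 estimated fragments, and no reads in del10.

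Most genes of the set lay within 2-fold. The median log2 ratio of del10 over ins2, computed on the normalized count plus 1, was 0.01, and its lower and upper quartiles were -0.26 and 0.28. Of the 5191 genes, 4980 or 95.9% were within 2-fold. Past 2-fold were 96 genes higher in del10 (1.85% of the set) and 115 genes lower in del10 (2.22%), together 211 genes or 4.06%. Past 4-fold were 7 genes higher (0.135%) and 3 lower (0.0578%). The interval on estimated fragments lay wholly beyond 2-fold for 10 genes higher in del10 (0.193%), namely *Hspa1a*, *Hspa1b*, *Bub1b*, *Dyrk3*, *Plk2*, *Parl*, *Klf2*, *Rhob*, *Fosb* and *Fos*. It lay wholly beyond 2-fold for 7 genes lower in del10 (0.135%), namely *Plekha1*, *Igj*, *Lrp1*, *Ncr1*, *Klra8*, *Gpr132* and *Klrd1*. Of the higher genes, *Hspa1a*, *Hspa1b*, *Bub1b*, *Dyrk3*, *Plk2* and *Parl* were under 400 in ins2 and entered the set through del10. Of the lower genes, *Plekha1*, *Igj*, *Lrp1* and *Gpr132* were under 400 in del10 and entered it through ins2. The shares of 1.85% and 2.22% are the background against which the gene lists below are read. Those lists were chosen with earlier results of these data known. A larger share in a list is therefore a description and not independent support.

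**Figure D1:**
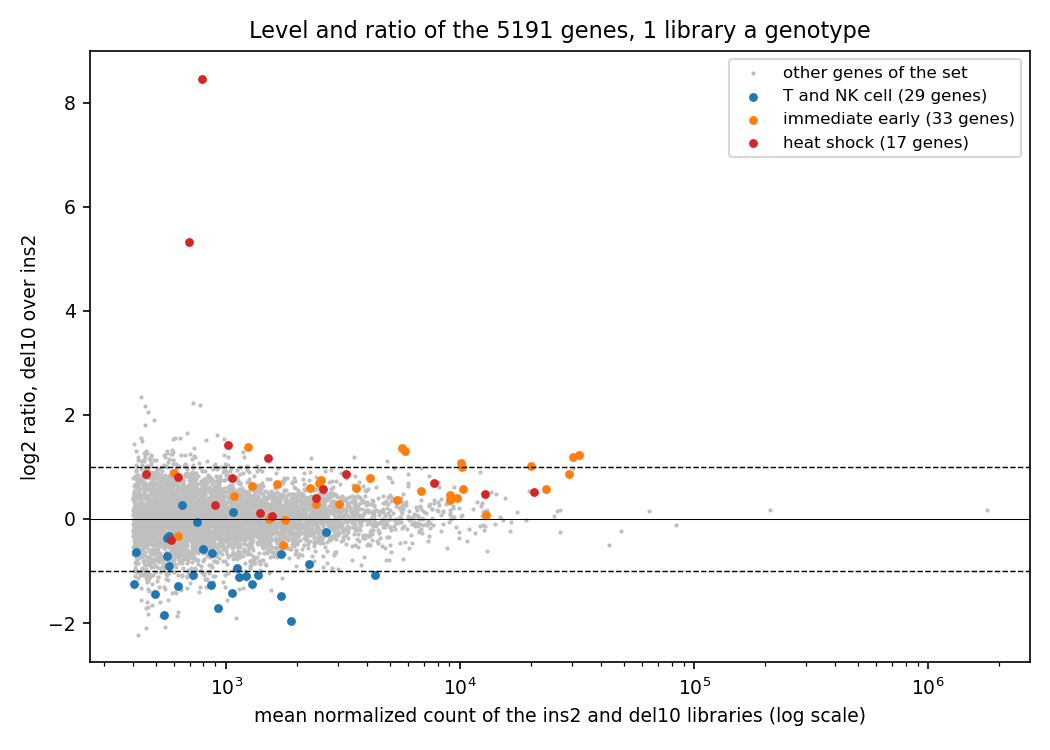
Each point is 1 of the 5191 genes, with its mean normalized count over the ins2 and del10 libraries on a log axis and its log2 ratio of del10 over ins2; dashed lines mark 2-fold. T and NK cell genes (blue, 29) lie mostly below 0 with a median of -1.07, whereas heat shock genes (red, 17) and immediate early genes (orange, 33) lie mostly above 0, with *Hspa1a* at 8.46 and *Hspa1b* at 5.32.

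The largest ratios of the comparison were those of the heat shock genes *Hspa1a* and *Hspa1b*. Heat shock genes code chaperones and co-chaperones that bind unfolded proteins in the cytosol. Many are transcribed by the factor HSF1, which binds heat shock elements made of repeats of the unit GAA and its complement TTC. Of 25 heat shock genes listed in the files, 17 were in the set. Of those 17, 4 were past 2-fold higher in del10 (23.5%, beside 1.85% of the set) and none lower. Of the 4, *Hspa1a* and *Hspa1b*, copies that may share reads, were under 400 in ins2 and entered the set through del10. A ratio above 0 was seen in 16 of 17, with a median log2 ratio of 0.68 against 0.01 for the set.

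The inducible HSP70 gene *Hspa1a* had a normalized count of 3.44 in ins2 and 1568 in del10. *Hspa1b*, which codes nearly the same HSP70 protein, had 33.0 in ins2 and 1359 in del10. They were the only members of the set with a library under a normalized count of 100, and ins2 was the low library in both. *Hspa1a* in ins2 amounted to 3.50 reads, less than 1 estimated fragment, and the lower bound of its ratio on fragments was 20.1 with no upper bound. Reads from copies this alike can be divided between them by the counting, and so the sum of both is the safer value. It was 36.4 in ins2 and 2927 in del10, a log2 ratio of 6.29, with an interval on fragments from 19.4-fold to 591-fold.

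Promoter sequences of heat shock members were taken from RefSeq (build GRCm38.p6, the assembly behind mm10) as the 250 bases before the transcription start, and are shown because the largest ratios of the comparison belong to the first pair. Capitals mark each match to a pair of facing units, GAANNTTC or TTCNNGAA, where N is any base. Each of these forms reads the same on both strands, and neighbouring matches may overlap.
Hspa1a: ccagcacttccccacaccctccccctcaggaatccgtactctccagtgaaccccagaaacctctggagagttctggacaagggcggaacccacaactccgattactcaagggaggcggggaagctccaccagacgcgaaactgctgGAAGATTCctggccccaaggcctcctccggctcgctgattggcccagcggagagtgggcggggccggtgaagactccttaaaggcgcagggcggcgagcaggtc
Hspa1b: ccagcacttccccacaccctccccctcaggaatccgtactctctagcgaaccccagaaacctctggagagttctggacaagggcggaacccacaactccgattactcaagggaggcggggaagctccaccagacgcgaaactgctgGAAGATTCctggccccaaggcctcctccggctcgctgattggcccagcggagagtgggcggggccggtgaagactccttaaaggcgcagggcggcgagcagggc
Hsph1: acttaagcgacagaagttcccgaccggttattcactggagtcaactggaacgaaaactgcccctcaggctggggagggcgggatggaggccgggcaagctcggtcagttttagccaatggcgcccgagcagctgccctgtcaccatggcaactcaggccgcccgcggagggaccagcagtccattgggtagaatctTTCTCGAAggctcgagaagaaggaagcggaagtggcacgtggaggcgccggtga
Hspd1: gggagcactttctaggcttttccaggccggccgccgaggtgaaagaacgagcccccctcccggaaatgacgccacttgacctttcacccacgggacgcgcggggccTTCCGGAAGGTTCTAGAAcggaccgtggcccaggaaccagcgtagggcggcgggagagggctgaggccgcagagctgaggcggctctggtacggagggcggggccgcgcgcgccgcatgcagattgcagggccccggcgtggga
The windows lie at chr17:34972157-34972406 (*Hspa1a*), chr17:34959239-34959488 (*Hspa1b*), chr5:149636316-149636565 (*Hsph1*) and chr1:55087933-55088182 (*Hspd1*), all on the minus strand. The *Hspa1a* and *Hspa1b* windows were the same at 247 of 250 bases, with a single match at the same place, from 104 to 97 bases before the start. *Hsph1* had 1 match, from 54 to 47 bases before the start. *Dnajb1*, the remaining member past 2-fold, had no match in either of its windows. In the window shown, *Hspd1* had 3 overlapping matches, which together also hold the longer arrangement of 3 facing units (GAANNTTCNNGAA, or TTCNNGAANNTTC on the other strand), although its ratio was among the smaller ones of the list. The other window of *Hspd1* had no match. A window was available for 14 of the 17 heat shock genes in the set, and 8 of 14 held a pair of units in at least 1 of their windows, against 12.0% of the 3944 set genes with a window and 12.8% of all 32851 windows. Of the same 14 heat shock genes, 2 held 3 facing units, against 0.634% of the set genes and 0.514% of all genes with a window. A match is a description of letters and not a measured binding site.

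The next highest ratios of the list were those of co-chaperone genes. *Hsph1*, which codes the HSP110 nucleotide exchange factor, was at 554 in ins2 and 1484 in del10, 2.67-fold higher, and *Dnajb1*, which codes an HSP40 that hands substrates to HSP70, was at 934 and 2099, 2.25-fold higher. The intervals on fragments, from 1.71 to 4.25 and from 1.60 to 3.25, reached below 2-fold for both. *Dnaja1*, another HSP40, was at 2305 and 4219, a log2 ratio of 0.87. *Hspa4l*, an HSP110 relative, was at 323 and 587, and *Hspa4* of the same family at 2087 and 3100.5.

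The remaining heat shock genes of the set were within 2-fold. *Chordc1*, *Stip1* and *Hsp90aa1*, with log2 ratios of 0.80, 0.79 and 0.68, were above *Hspa4* at 0.57. *Hspa8*, the constitutive HSP70 and the member with the highest count, was at 17074 in ins2 and 24301 in del10, 1.42-fold. *Hsp90aa1* and *Hsp90ab1*, the cytosolic HSP90 genes, were at 5907 and 9492, and at 10649.9 and 14862. Among HSP90 co-chaperones, *Stip1* was at 778 and 1344, *Chordc1* at 454 and 793, and *Fkbp4* at 1336 and 1447. *Ahsa1*, the activator of the HSP90 ATPase, was the single member with a ratio below 0, at 662 in ins2 and 499 in del10. The mitochondrial chaperonin gene *Hspd1* was at 2089 and 2758, *Dnajb4* at 811 and 981, and *Dnajb6* at 1537 and 1603.

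Of the 8 heat shock genes below the set's minimum, *Hspe1*, the partner of *Hspd1*, was at 385 and 257, *Hsf1* itself at 287 and 343, *Hsf2* at 48.2 and 46.9, and the HSP70 co-chaperone *Bag3* at 76.8 and 130.4. *Hspa1l*, a neighbour of *Hspa1a*, and the small heat shock gene *Hspb1* had no reads in ins2 and 63.0 and 19.4 in del10. *Cryab* and *Hspb8* had no reads in either library.

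Immediate early genes, whose transcription starts within minutes of a stimulus without new protein synthesis, were mostly higher in del10. Of 39 such genes, 33 were in the set, of which 7 were past 2-fold higher in del10 (21.2%, beside 1.85% of the set) and none lower. The median log2 ratio was 0.60, with 29 of the 33 above 0. Many of them had high counts, so that their ratios had narrow counting intervals.

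*Fos* and *Fosb*, which code subunits of the AP-1 transcription factor, were at 18439 and 19275 in ins2 and at 42292 and 45221 in del10. Their ratios were 2.29-fold (2.13 to 2.48 on fragments) and 2.35-fold (2.18 to 2.53). *Rhob*, a small GTPase gene, was at 3324 and 8240.4, a ratio of 2.48 (2.07 to 2.98), and *Klf2*, which codes a Krüppel-like factor of quiescent lymphocytes and endothelium, at 3148 and 8119, a ratio of 2.58 (2.15 to 3.12). For these 4 genes the whole interval lay beyond 2-fold. *Atf3*, which codes a stress-induced factor of the ATF family, was at 688 and 1785, with an interval from 1.77 to 4.01.

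The other members past 2-fold, named after their values were seen, were *Egr1* (6514 and 13736) and *Klf6* (13273 and 26761). *Jun*, the partner of the FOS proteins, was at 20664 and 37711, 1.82-fold, whereas *Junb* was at 12539 and 13278, 1.06-fold. The AP-1 genes were therefore not alike in size of difference. The MAP kinase phosphatase *Dusp1* was at 6759 and 13515, just inside 2-fold, and *Dusp5* at 1532 and 1529.9. Members with a ratio below 0 included *Socs3*, the feedback inhibitor induced by STAT3 (2047 and 1450.3), and *Nr4a2*, an orphan nuclear receptor gene (692 and 552). *Egr3*, below the minimum, had 17.2 and 150.2. T and NK cell genes, described next, were lower in the library in which the heat shock and immediate early genes were higher, and their part in these ratios was not tested.

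**Figure D2:**
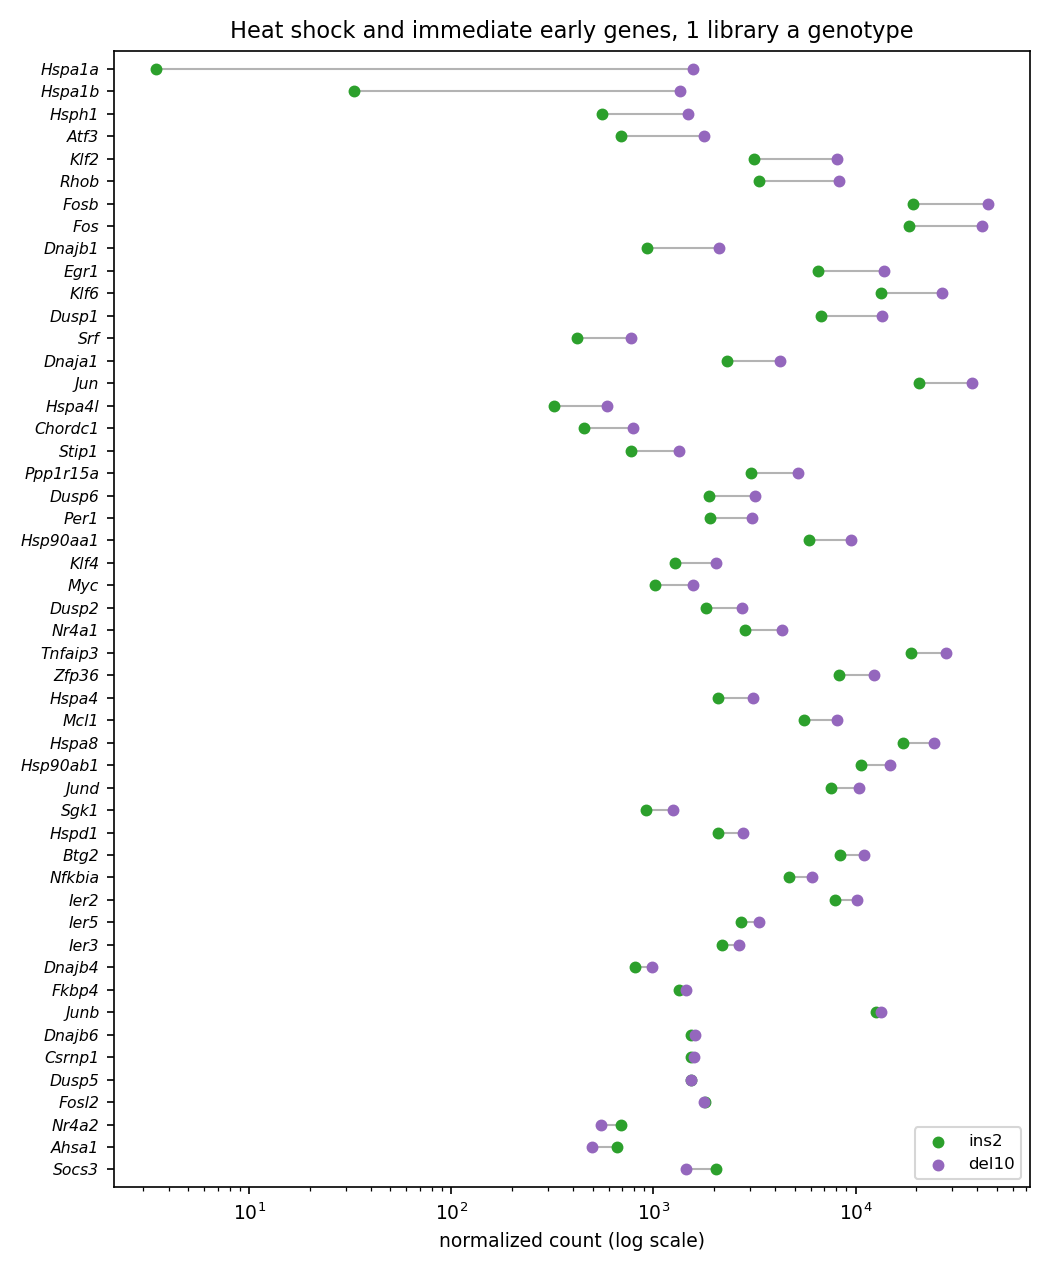
Normalized counts of the heat shock and immediate early genes in the set on a log axis, with ins2 in green and del10 in purple, ordered by log2 ratio; each point is 1 library. The del10 point lies to the right of the ins2 point for most genes, and *Hspa1a* and *Hspa1b* are the only genes whose ins2 point lies under 100.

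Genes of T and NK cells made up the largest group lower in del10. T cells recognise antigen through the T cell receptor and its CD3 chains, and NK cells through germline-encoded activating and inhibitory receptors; both kill through perforin and granzymes. All 39 genes of the list had reads in both libraries. Of these, 29 were in the set, of which 15 were past 2-fold lower in del10 (51.7%, beside 2.22% of the set) and none higher. The median log2 ratio was -1.07, and 27 of 29 had a ratio below 0. Some of the 15, among them *Cd8a*, *Cd247* and *Zap70*, were under 400 in del10 and entered the set through ins2. Summed over all 39 genes, the normalized count was 46709.9 in ins2 and 23890.1 in del10, 1.96-fold lower in del10. In RNA from a bulk of cells, fewer cells of a type and less RNA per cell cannot be told apart.

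Receptor genes of NK cells were among the members with the lowest ratios. *Ncr1*, which codes the activating receptor NKp46, was at 3001 in ins2 and 770.1 in del10, 3.89-fold lower, with an interval on fragments from 2.80 to 5.56. *Klrd1* (CD94) was at 1413 and 429, 3.29-fold lower, with an interval from 2.08 to 5.43, and *Klrb1c* (NK1.1) at 2511 and 905, 2.77-fold lower, with an interval from 2.00 to 3.86. *Klrk1*, which codes the activating receptor NKG2D, was at 2925 and 1598, within 2-fold.

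Most receptor genes of this family lie together on mouse chromosome 6, and that stretch was examined after the values had been seen. Between 128609227 and 131247362 on chromosome 6 (mm10 coordinates as deposited), 15 genes were in the set, of which 11 were *Klr* genes. Of the 11, 9 were past 2-fold lower in del10 (beside 2.22% of the set) and none higher, with a median log2 ratio of -1.43. Those 9 were *Klra8*, *Klra13-ps*, *Klrd1*, *Klra7*, *Klrb1c*, *Klre1*, *Klrb1b*, *Klri2* and *Klra4*, with log2 ratios from -1.91 to -1.03. Of these, *Klra13-ps*, *Klra7*, *Klre1* and *Klra4* were under 400 in del10 and entered the set through ins2. The 4 other genes of the stretch, *BC035044*, *Clec2d*, *Cd69* and *Gabarapl1*, had log2 ratios of 0.47, -0.17, 0.97 and 0.41. On the rest of chromosome 6, 6 of 240 genes were past 2-fold lower, and the median was -0.02. *Klra8* (Ly49H, which recognises a cytomegalovirus protein) was at 1743 in ins2 and 462 in del10, and *Klra7* (Ly49G) at 783 and 259. The *Klra* genes are closely related copies, and the split of reads among them is uncertain.

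Genes of the T cell receptor complex and its signalling were lower as well. *Cd8a*, a coreceptor gene, was at 854 in ins2 and 236 in del10, 3.61-fold lower, with an interval from 1.98 to 7.38, and *Cd247*, the zeta chain shared with NK receptors, at 727 and 266. *Zap70*, the kinase that binds it, was at 566 and 239, and *Lck*, the kinase upstream, at 2115 and 1318. The adaptor *Lat* was at 765 and 737, and *Cd28* and *Cd2*, which code costimulatory receptors, were the pair with ratios above 0, at 1021 and 1114, and at 588 and 706. The direction was therefore not shared by every member.

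All 10 members below the minimum were also lower in del10, and their summed normalized count was 3270.0 in ins2 and 1121 in del10. *Cd3d*, *Cd3e* and *Cd3g*, the CD3 chains that define T cells, were at 187, 334 and 194 in ins2 and at 11.8, 61.1 and 32.6 in del10. *Cd4* was at 538 and 95.7, and *Cd8b1* at 477 and 76.1. Few fragments stand behind these values. *Cd3d* in del10 was under the 16 reads of 1 estimated fragment, and *Cd4* in del10 had about 5.88 fragments.

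Among effector genes, *Prf1* (perforin) was at 974 in ins2 and 464 in del10, *Gzma* and *Gzmb* (granzymes) at 1458 and 756, and at 501 and 324. *Nkg7*, of cytotoxic granules, was at 1821 and 761, *Ctsw*, a cathepsin of killer cells, at 1540.5 and 572, and the chemokine *Ccl5* at 1665 and 778. Perforin, *Nkg7*, *Ctsw* and *Ccl5* were past 2-fold and the granzymes were not. Of the transcription factors, *Tcf7* of T cell development was at 1854 and 882, past 2-fold, whereas *Eomes* of NK and memory cells (949.8 and 637) and *Bcl11b* of T cell commitment (692 and 425) were within it. *Il2rb*, the chain shared by the receptors for IL-2 and IL-15, was at 5884 and 2777, and was the single gene lower past 2-fold among the 438 genes that averaged 3200 or more.

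**Figure D3:**
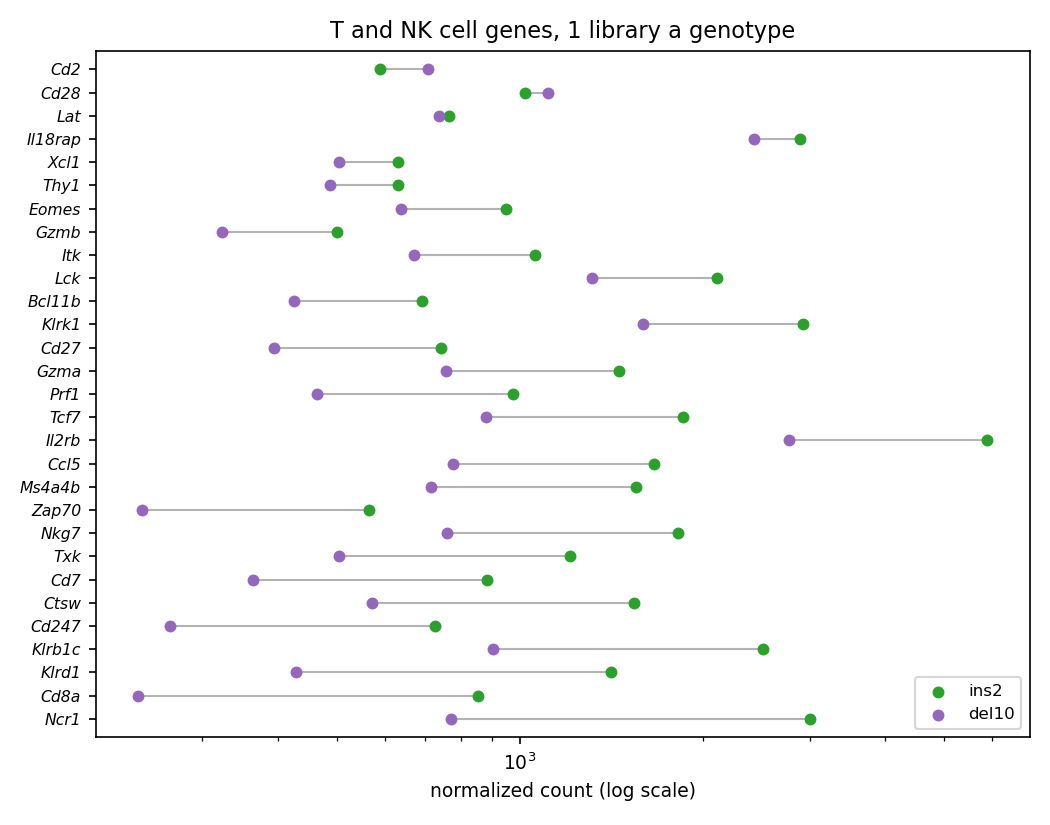
Normalized counts of the 29 T and NK cell genes in the set on a log axis, with ins2 in green and del10 in purple, ordered by log2 ratio; each point is 1 library. The del10 point lies to the left for all genes but *Cd28* and *Cd2*, and the widest gap is that of *Ncr1*, from 3001 in ins2 to 770.1 in del10.

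The *Gimap* genes, which code GTPases of lymphocyte survival and also lie on chromosome 6, were looked up after *Gimap1* appeared among the lowest ratios. *Gimap1* was at 726 and 204, 3.55-fold lower, and *Gimap4* at 2375 and 1086. Of the 7 *Gimap* genes in the set, these 2 were past 2-fold lower, 6 had a ratio below 0, and *Gimap9* was at 532 and 709.9.

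Cytokine receptor genes, through which JAK kinases and STAT factors are activated, had a median log2 ratio of -0.62 over 15 members in the set. Of these, 2 were past 2-fold lower (13.3%, beside 2.22% of the set) and none higher. The median depended on the minimum, at -0.28 over 23 genes with a mean of 200 and -0.34 over 9 genes with a mean of 800. The 2 past 2-fold were *Il12rb2*, a chain of the IL-12 receptor (738 in ins2 and 298 in del10), and *Il2rb*, which the T and NK cell list also holds. *Il12rb2* was under 400 in del10 and entered the set through ins2. Without *Il2rb*, the median of the other 14 was -0.48, with 1 past 2-fold lower. *Il2rg*, the common gamma chain, was at 1688 and 1075, and *Ifngr1*, of the interferon-gamma receptor, at 3542 and 2275. *Csf2rb*, the common chain for IL-3, IL-5 and GM-CSF, was at 4683 and 4903, although it may share reads with its copy *Csf2rb2* (2321 and 2110.2). Of the 15 members, 13 had a ratio below 0, as did 12 of the 14 without *Il2rb*. T and NK cell genes, by the summed counts above, were lower in the same library, and their part in this list and in the JAK-STAT, BCL2, homing and monocyte lists below was not tested.

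Of the kinases, factors and feedback genes of the JAK-STAT pathway, 35 were in the set, with a median of -0.15. Of these, 2 were past 2-fold lower in del10 (5.71%, beside 2.22% of the set) and none higher. *Jak2* was at 3773 in ins2 and 3647 in del10, *Stat3* at 1899 and 1737, and *Jak1*, the JAK gene with the highest count, at 10463 and 7134. The phosphatase gene *Ptprc* (CD45) was at 15739 and 10332, 1.52-fold lower. The members past 2-fold were *Pim2*, a survival kinase induced by STAT5 (649 and 299), and *Bcl2l1*, which codes the anti-apoptotic protein BCL-XL (805 and 397). Both were under 400 in del10 and entered the set through ins2. At the other end, *Sos1*, a Ras exchange factor, was at 599 and 1079. *Socs3* and *Pim2* were lower in del10 and *Stat5a* was higher (1084 and 1674). Of the 35 members, 24 had a ratio below 0 and 11 above.

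In the BCL2 family, *Bcl2l1* was the 1 member of 6 past 2-fold, lower in del10 (16.7%, beside 2.22% of the set). The median of -0.47 became 0.18 over 11 genes at a minimum mean of 200. *Bcl2* was at 3736 and 1948, 1.92-fold lower, the pro-apoptotic *Bcl2l11* (BIM) at 698 and 433, and *Bak1* at 295 and 572. *Mcl1*, an anti-apoptotic member, was at 5529 and 8068. Anti-apoptotic members were on both sides of 0, as were pro-apoptotic ones.

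Stem and progenitor surface genes had no single direction. In the set, 1 of 9 was past 2-fold higher (11.1%, beside 1.85% of the set) and none lower. A ratio above 0 was seen in 5 of 9, and the median of 0.24 became -0.13 over 11 genes at a minimum mean of 200. Of the 11 members below a mean of 400, 5 had a ratio above 0 and 5 below, and their summed normalized count was 1415 in ins2 and 1030.4 in del10. The member past 2-fold was *Cd34*, a sialomucin gene of progenitors, at 727 in ins2 and 1664 in del10, 2.29-fold higher, with an interval on fragments from 1.55 to 3.48. *Eng*, a TGF-beta coreceptor gene, was at 353 and 630.5, and *Itga2b*, of the fibrinogen receptor, at 2775 and 4286. *Cd48*, which progenitors and lymphocytes share, was at 819 and 538, in the other direction.

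Of 15 stem cell transcription factor genes in the set, 2 were past 2-fold higher in del10 (13.3%, beside 1.85% of the set) and none lower. A ratio above 0 was seen in 13 of the 15, and the median was 0.34. Among them, *Erg*, an ETS factor of stem cell maintenance, was at 366 and 742, and its fragment interval ran from 1.15 to 3.69. *Erg* was under 400 in ins2 and entered the set through del10. *Etv6* and *Meis1*, within 2-fold, were at 1510.5 and 2788 and at 831 and 1527. *Myb*, which progenitors need to proliferate, was at 6403 and 9841, and *Gata2* at 5708 and 6339.6. T and NK cell genes were lower in the same library in which these were higher, and the part of one in the other was not tested.

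Genes of other mature lineages were largely within 2-fold. None of the 19 B lineage genes in the set passed it, with a median of 0.00: *Rag1*, which rearranges antigen receptor genes, was at 7175 and 4899, and *Btk*, the kinase of B cell receptor signalling, at 802 and 1349. None of 10 basophil, mast cell and eosinophil genes passed it, with a median of 0.29. There, the basophil proteases *Prss34* and *Mcpt8* were at 11103 and 15962, and at 3678 and 6319.7. The B lineage median of 0.00 stood beside that of -1.07 for the T and NK cell genes.

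None of 13 monocyte, macrophage and dendritic cell genes passed 2-fold, with a median of -0.31. *Ccr2*, the receptor that brings monocytes out of the marrow, was at 3389 in ins2 and 1788 in del10, and *Tyrobp*, an adaptor that NK cells share, at 1884 and 1036. *Irf4* was at 1665 and 2641, in the other direction. Of 6 genes of MHC class II and its loading, none passed 2-fold and the median was also -0.31, with *H2-Aa* at 1015 and 541 and *Cd74* at 3211 and 2580.0.

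Of the 21 neutrophil granule genes, only *Mpo* and *Ctsg* were in the set. *Ctsg* (cathepsin G) was at 206 in ins2 and 774 in del10, 3.74-fold higher with an interval from 1.85 to 8.23, and *Mpo* (myeloperoxidase) at 1581 and 2972. These are granule proteins of promyelocytes, whereas *Elane* and *Prtn3* of the same stage were at 104 and 129, and at 261 and 310.1. Of the 19 members below the minimum, 10 had no reads in either library, among them *Ltf*, *Camp*, *Lcn2* and *Ngp* of later stages.

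Erythroid genes lay to one side without passing 2-fold. Of 10 in the set, 9 had a ratio above 0, the median was 0.44, and none passed 2-fold. Carbonic anhydrase 1 (*Car1*) was at 1037 and 1609, and the globin gene *Hba-a1* at 738 and 1025, though it may share reads with its copy *Hba-a2*. Megakaryocyte and platelet genes, 9 in the set, had a median of 0.23 with none past 2-fold. *Plek*, the platelet protein kinase C substrate, was at 5324 and 9392, whereas *Itgb3*, the partner of the *Itga2b* product, was at 1398 and 877, in the opposite direction. Of 28 stromal and endothelial genes, 3 reached the set, and *Col1a1* and *Cxcl12* were at 1665 and 900.4, and at 611 and 332.

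Homing and adhesion genes had 2 of 19 members past 2-fold lower in del10 (10.5%, beside 2.22% of the set) and none higher, with a median of -0.26. *Ccr9*, a chemokine receptor of thymus-seeding cells, was at 617 in ins2 and 245 in del10, and *Itgam* (CD11b), of myeloid and NK cells, at 989 and 418. *Ccr9* was under 400 in del10 and entered the set through ins2. The leukocyte integrin genes *Itgal* and *Itgb2*, which pair as LFA-1, were at 7203 and 4199, and at 4361 and 2538. *Itga4*, which pairs into VLA-4, was at 8060.1 and 8504, and *Cxcr4*, the receptor for the niche chemokine CXCL12, at 2371 and 4108, higher in del10.

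*Calr* itself was at 4679 in ins2 and 7299.8 in del10, 1.56-fold higher, with an interval on fragments from 1.33 to 1.84. A gene count does not separate the mutant from the wild-type transcript. Of 34 genes of ER folding and the unfolded protein response in the set, 2 were past 2-fold higher in del10 (5.88%, beside 1.85% of the set). None was past 2-fold lower, the median was 0.14, and 20 of 34 were above 0.

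*Herpud1*, which takes part in ER-associated degradation, was at 1416 in ins2 and 3188 in del10, 2.25-fold higher (1.69 to 2.99 on fragments), and *Dnajb11*, an ER co-chaperone, at 438 and 883. *Hspa5*, which codes the HSP70 of the ER (BiP), was at 8519.7 and 15861, 1.86-fold (1.66 to 2.09). *Hsp90b1*, the HSP90 of the ER, was at 6199 and 6349, 1.02-fold, and *Canx*, the membrane-bound relative of calreticulin, at 5348 and 6076, while *Edem1*, of mannose trimming, was at 2806 and 1957. The glycan-processing genes *Mogs* and *Ganab* were at 962 and 692, and at 2959 and 2183. Log2 ratios within the list ran from -0.52 to 1.17.

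Of 11 mitosis genes in the set, 2 were past 2-fold higher (18.2%, beside 1.85% of the set) and none lower, with a median of 0.42 and 10 of 11 above 0. *Bub1b*, a kinase of the spindle checkpoint, was at 143 in ins2 and 727 in del10, 5.06-fold higher with an interval from 2.27 to 13.3. *Tpx2*, of spindle assembly, was at 218 and 645, with an interval from 1.44 to 6.20. Both entered the set through del10, where they are high, with means of 434.7 and 431.5. At a minimum mean of 800, 3 members stayed, without these, and the median was again 0.42. *Mki67*, a marker of cycling cells, and *Top2a*, a topoisomerase gene, had higher counts, and were at 4324 and 5781, and at 2294 and 3259, and *Cenpf* was the member with a ratio below 0. Of 27 DNA replication genes, 1 passed 2-fold, *Slbp*, which binds the ends of histone mRNAs (519 and 1131), and the median was 0.29. None of the 58 replication-dependent histone genes passed 2-fold, and their median was 0.09; as near-identical copies they can share reads.

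Outside these lists, the highest ratios after the HSP70 pair and *Bub1b* were those of *Dyrk3*, a kinase that dissolves stress granules (252 in ins2 and 1189 in del10), *Plk2*, a polo-like kinase of the stress response (278 and 1264), *Parl*, a rhomboid protease of mitochondria (164 and 739), and *Gadd45a*, a growth arrest gene (179 and 751). All of these were low in ins2, between 143 for *Bub1b* and 278 for *Plk2*. *Tmem14c*, which erythroid mitochondria need to make heme, was at 198 and 698, and *Sort1*, a sorting receptor gene, at 322 and 944. With *Ctsg* and *Tpx2* above, *Fam43a*, *Pus10*, *Eltd1* and *Usp6nl* completed the 15 highest outside predicted gene models, with log2 ratios from 1.54 to 1.60.

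At the other end, the lowest ratio was that of *Plekha1*, whose product binds phosphoinositides (689.5 in ins2 and 147 in del10, 4.67-fold lower, 2.18 to 11 on fragments). *Igj*, the joining chain of IgM and IgA, was at 734 and 172, and *Lrp1*, an endocytic receptor gene, at 892 and 209. *Gpr132*, a receptor of the G protein-coupled class, was at 964 and 263, and *Cyba*, a subunit of the phagocyte NADPH oxidase, at 831 and 227. *Znrf3*, *Zufsp* and *Adpgk*, with log2 ratios of -1.71, -1.69 and -1.66, were also among the 15 lowest. The NK receptor genes *Ncr1*, *Klra8*, *Klra13-ps*, *Klrd1* and *Klra7* and the lymphocyte genes *Cd8a* and *Gimap1* filled the other places.

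Pathway and housekeeping lists lay close to the set as a whole. Secreted mediators had 1 of 16 members past 2-fold, *Ccl5*, with a median of -0.04. Among them, *Csf1*, the macrophage growth factor, was at 4249.9 in ins2 and 7704 in del10, and *Edn1*, which codes endothelin-1, had no reads in ins2 and 20.4 in del10, about 1.25 fragments. In the TNF receptor and NF-kappaB list none of 19 passed 2-fold (median 0.27), with the inhibitor *Tnfaip3* at 18701 and 28014, and *Ikbkg*, the regulatory subunit of the IKK complex, at 987 and 497. The TGF-beta list had none of 17 (median 0.19), the p38 MAPK and ERK feedback list none of 15 (0.13), and the interferon response list none of 14 (-0.14).

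Of the genes mutated in myeloproliferative neoplasms, 24 were in the set, none passed 2-fold and the median was 0.06, with *Setbp1* lowest (598 and 326) and *Calr* highest. Glycolysis and hypoxia genes had none of 23 (median 0.12), and the glutathione and antioxidant list 1 of 19 past 2-fold higher, *Sod2*, the superoxide dismutase of mitochondria (449.9 and 1026). None of the 76 ribosomal protein genes passed 2-fold; their log2 ratios ran from -0.42 to 0.62 with a median of 0.16. None of 25 splicing factor genes (median 0.21) and none of 30 respiratory chain genes (-0.07) passed it, and 1 of 30 proteasome genes did, the immunoproteasome subunit *Psmb10* (629 and 284). Noncoding RNAs had none of 7 past 2-fold, although the nuclear RNA *Neat1* was at 20435 and 40158, 1.97-fold. *Actb* was at 52271 and 44791, and *Gapdh* at 3260.0 and 3161.

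**Figure D4:**
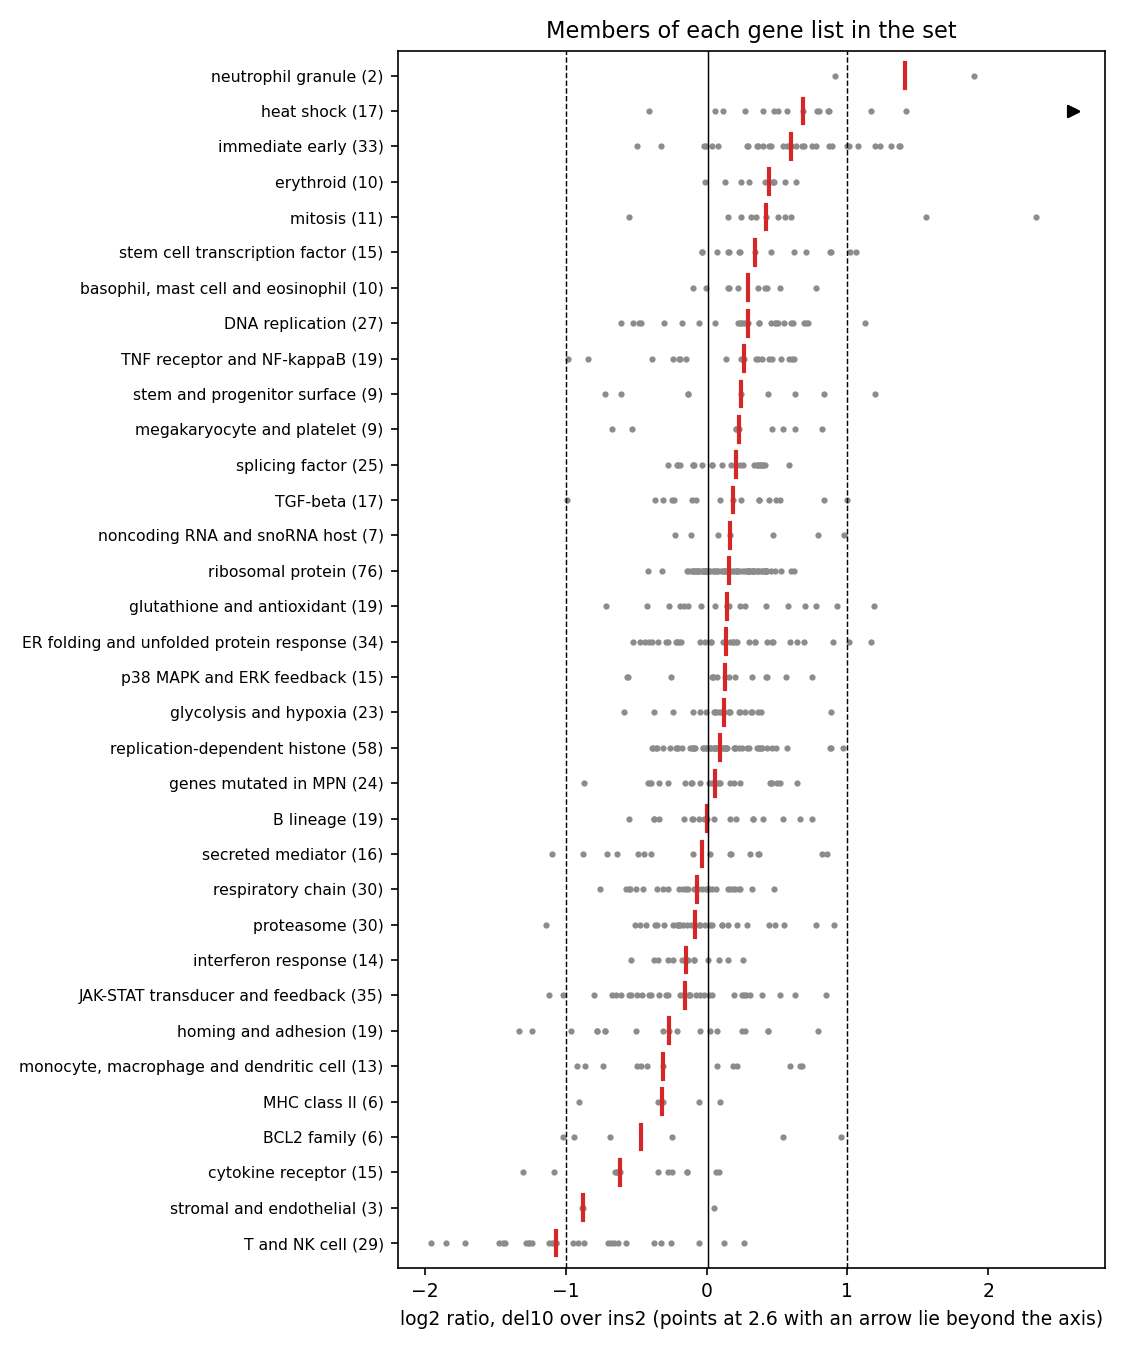
Log2 ratio of del10 over ins2 for the members of each of the 34 gene lists in the set (grey points, number of members in parentheses), with the median of each list in red, the median of the set as a solid line and 2-fold as dashed lines. The T and NK cell list is lowest at -1.07 and the heat shock and immediate early lists are near the top at 0.68 and 0.60; *Hspa1b* and *Hspa1a*, at 5.32 and 8.46, lie beyond the axis.

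How many genes passed 2-fold depended on their level. Between normalized counts of 400 and 800, 150 of 2278 genes passed it in either direction, 6.58%. From 800 to 1600 it was 48 of 1550 (3.10%), and from 1600 to 3200 it was 4 of 925 (0.432%). Above that the share was larger again, with 9 of 438 genes at 3200 or more, of which 8 were higher in del10 and *Il2rb* was lower. Of the 8, 6 were immediate early genes; the others, named after their values were seen, were *Nlrp3*, the inflammasome sensor (2149 and 4911), and *Vmp1*, of autophagosome formation (3072 and 6625). The set is chosen on the mean, so a gene could enter through 1 library alone: 538 of its genes had a value under 400 in 1 library, and these held 125 of the 211 genes past 2-fold.

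**Figure D5:**
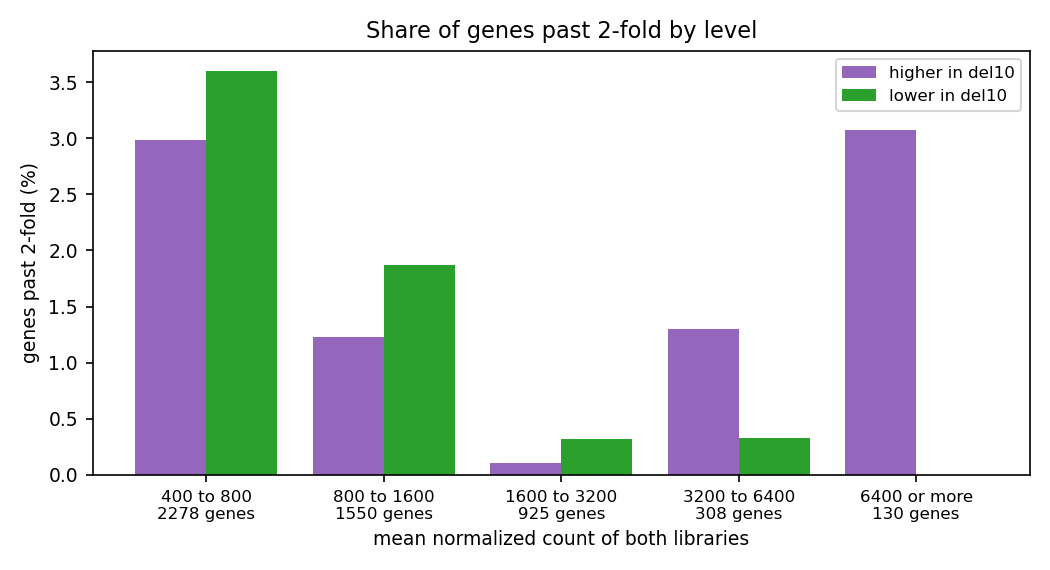
Percent of genes past 2-fold in each class of mean normalized count, higher in del10 (purple) and lower in del10 (green), with the number of genes under each class. Genes lower in del10 fall from 3.60% in the lowest class to 0 in the highest, whereas genes higher in del10 fall to 0.108% and are at 3.08% in the highest class.

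The share also varied with transcript length and position. In 3 classes of equal size by exon length, which was known for 4970 of the 5191 genes (95.7%), the share past 2-fold was 5.19% for the shortest, 4.23% for the middle and 2.66% for the longest. By chromosome, the share lower in del10 was highest, among the autosomes, on chromosome 6 (15 of 255 genes, 5.88%), where 9 of the 15 were the *Klr* genes described above, and on chromosome 10 (13 of 252, 5.16%). Of the 5 Y-linked genes in the set, *Eif2s3y* was the 1 past 2-fold.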

How the data were processed

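RNA of LSK cells was sequenced by the authors from 1 library per genotype (5 ng of total RNA, NEBNext Ultra II Directional kit after depletion of ribosomal RNA, NextSeq 500, single 75-base reads). According to the study's methods and the submitters' processing notes, reads were made with bcl2fastq 2.20, trimmed with Trimmomatic 0.32, aligned to mm10 with TopHat2 2.1.1 and Bowtie2 2.2.3, and quantified in StrandNGS 3.2. Removal of duplicate reads and the handling of multiply mapped reads are not given in the sources used here. The authors deposited estimated counts of reads per gene, which need not be whole, and TMM-scaled values as log2. The kit marks strand, and whether the counting used it is not given.

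From these, the library factors were taken as the ratio of the linear TMM value to the count (0.984 for ins2 and 1.02 for del10), and normalized counts as the count times the factor. Ratios used a pseudocount of 1. Fragments were estimated by dividing reads by the commonest low read count of a library (moving mean over 11 counts, searched from 5 to 150 reads), with exact binomial intervals in SciPy 1.17.1. TMM factors for an alternative scaling came from edgeR 4.0.16 on rounded counts; no edgeR test was run, as there are no replicates. The calculations were tested on simulated counts, drawn in single reads and in fragments of the assumed size. That test cannot check the assumed size itself. Members, 34 gene lists and named genes were chosen with earlier results of these data known. Named were the 15 highest and 15 lowest ratios outside predicted gene models, in each list the 4 largest absolute ratios and the 2 highest levels, every heat shock gene and a fixed group of marker genes; other names were chosen after their values were seen. Of the list names, 2 matched no gene and 4 matched through an alias. The wild-type library entered only 1 alternative filter. Some genes that this rule names are not reported here.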

Additional observations from a re-analysis of the deposited data

How the results depend on the processing

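No paired analysis was possible because each genotype had 1 library, and for the same reason no replicate could be left out. The counts past 2-fold depended on the filter: 259 genes higher and 309 lower at a minimum mean of 200, 28 higher and 33 lower at 800, and 2179 higher and 1974 lower without a filter, where 13855 genes were kept. With a normalized count of 400 in the wild-type library as the filter, 150 were higher, and 132 lower. Under the 3 other scalings and the pseudocounts of 0.5 and 10 the counts stayed within 78 to 96 higher and 108 to 131 lower. The fragment intervals depended on the size of a fragment: with each read as 1 fragment, 57 genes higher and 56 lower lay beyond 2-fold, and with 2 times the reads per fragment 4 and 2. Of 1155 values of named genes under the other scalings and pseudocounts, none changed sign from a ratio past 2-fold. That outcome was fixed in advance, as the largest shift of the log2 ratios by a scaling was -0.047 and a pseudocount keeps the sign. Under these settings, 5 named genes of the set crossed 2-fold (*Dnajb11*, *Erg*, *Id2*, *Ikbkg* and *Selplg*). The other scalings moved a list median by at most 0.09, whereas the minimum mean moved one by up to 0.65. At a minimum of 200 the BCL2 family median went from -0.47 to 0.18, the stem and progenitor surface median from 0.24 to -0.13 and the cytokine receptor median from -0.62 to -0.28. The secreted mediator median, -0.04, became 0.10 at 200 and at 800, and the respiratory chain median, -0.07, became 0.04 at 800. The B lineage median of 0.00 became -0.01 and -0.04 under scalings by the median of ratios and by total reads. The median of the heat shock list was 0.68 and its mean 1.32. The shares of genes past 2-fold by level, length and chromosome were computed under the main settings only.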
